A study of Homo sapiens with 6 samples.

Results

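K562 is an established line of human chronic myeloid leukaemia cells that carries the Philadelphia translocation, and 10 genes of its driving kinase pathway are described here out of 46427 genes in the deposited tables. They were chosen by gene symbol: the fusion partners BCR and ABL1, the transcription factors STAT5A and STAT5B, and 6 known STAT5 output genes, PIM1, PIM2, SOCS2, SOCS3, CISH and BCL6. All 10 were found, and all 10 passed the filter for testing, a mean over the 6 libraries of at least 1 FPKM (a fragment count scaled to transcript length and library size). BCL6 passed only through its level after treatment. The vehicle group held 3 libraries of cells given 0.1% DMSO, and the treated group held 3 libraries of cells given 10 µM HR-19011, for 24 h in each case. HR-19011 is known here by its code name. The labels call both groups wild type, which for this line includes the translocation. They do not give the DMSO percentage of the treated libraries or say whether the 3 libraries of a group came from separate cultures. P-values therefore refer to the spread among these libraries alone, and that spread may be technical.

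In the translocation, the start of BCR on chromosome 22 is joined to most of ABL1 from chromosome 9, and the product is a tyrosine kinase that is active without a signal. That kinase leads to phosphorylation of STAT5, a pair of closely related proteins which normally carry cytokine signals such as erythropoietin's from JAK kinases to the nucleus. STAT5 binds a palindromic motif and induces survival kinases of the PIM family and inhibitors of its own pathway (CISH and the SOCS proteins), while it is known to repress BCL6, a transcriptional repressor.

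Erythroid genes that mark K562 (HBG1, HBG2, HBE1, HBZ, GATA1, TAL1 and EPOR) were present in every library, with a summed level of 9649 to 9842 FPKM in vehicle and 4125 to 4347 FPKM in HR-19011. Most of this sum came from HBG1 (mean 3349 to 1312 FPKM) and HBG2 (4386 to 1885 FPKM). TAL1 did not fall (31.3 to 32.0 FPKM), and the other markers were lower in HR-19011. Of 10 genes this line should lack, CDKN2A, which is deleted in it, and MS4A1 were listed at 0 in all libraries, 6 stayed under 1 FPKM, and CD3D and LYZ reached 12.1 and 13.2 FPKM. Their summed level was 18.1 to 21.7 FPKM in vehicle and 25.2 to 26.3 FPKM in HR-19011, and its part in the results was not tested. The files hold no read counts, so the depth behind each value is unknown, and in bulk RNA fewer cells of a kind and less RNA per cell cannot be told apart.

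Of the 10 genes, 4 were higher and 5 lower in HR-19011 at a Benjamini-Hochberg adjusted p under 0.05 in limma, a linear model fitted to log2(FPKM + 1) of all 11856 tested genes. The background was high: 84.4% of tested genes were called, 46.4% higher and 38% lower. The ranges of both groups were separate for 9 of the 10 genes and for 85.2% of tested genes. A called difference of at least 1 on the log2 scale was found for 2 of the 10 (PIM2 and BCL6) and for 18.5% of tested genes. The median log2 difference of the 10 genes was -0.11. The count of calls is thus near the background, and the individual genes are described by size and direction. The library scaling moved the median log2 difference of all tested genes, 0.07 with FPKM as deposited, by -0.22 under trimmed mean of M values (TMM) scaling, 0.12 under TPM, which rescales each library to the same total, and -0.13 under quantile normalization. The share of calls that were higher, 55.01% as deposited, became 40.1%, 62.2% and 46.1%. Under TMM 85.1% of tested genes were called (34.1% higher, 51% lower), under TPM 85% (52.9% higher, 32.1% lower) and under quantile normalization 83.9% (38.6% higher, 45.3% lower).

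**Figure D1:**
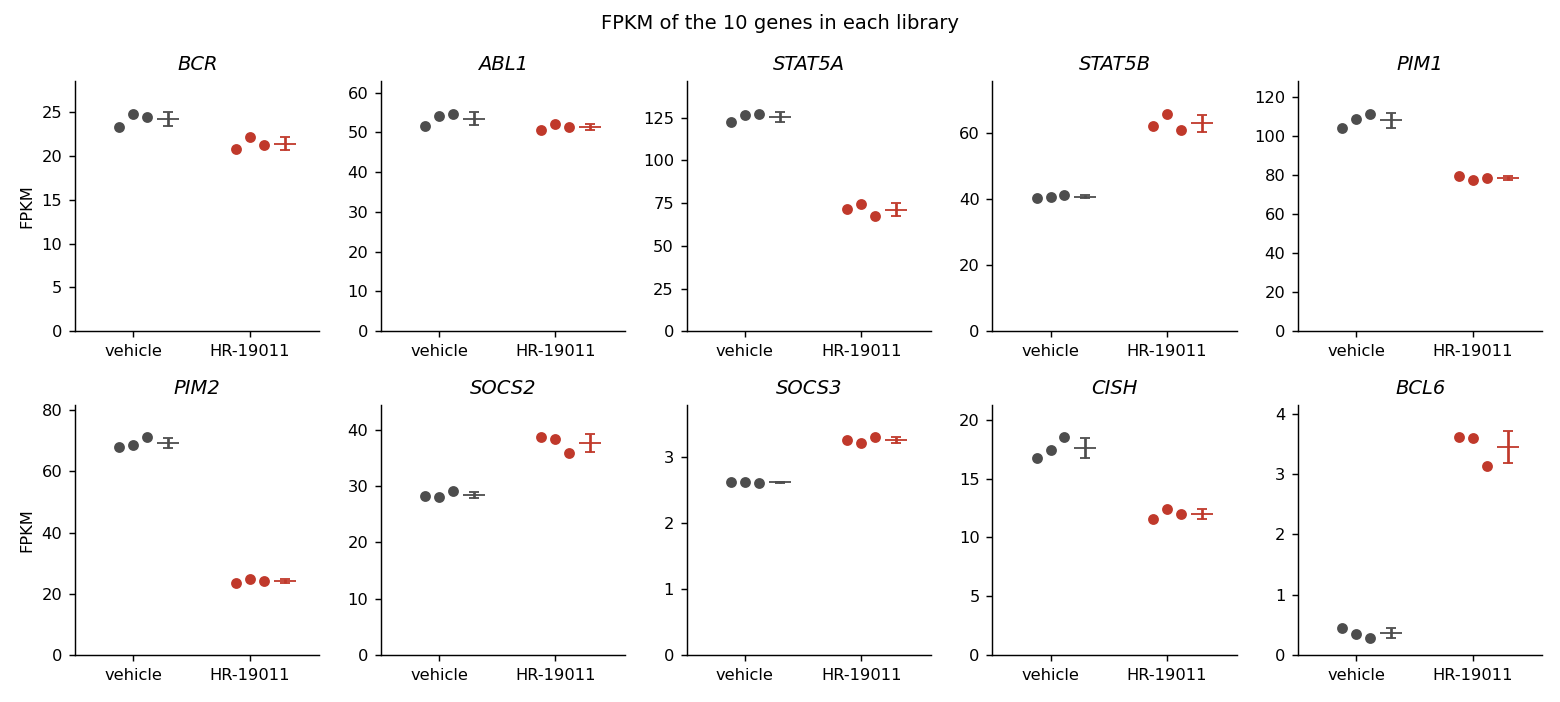
FPKM (vertical axes, each from 0) of the 10 genes in 3 vehicle (grey) and 3 HR-19011 (red) libraries, with a bar for the mean and whiskers of 1 SD. ABL1 is the gene whose groups overlap, PIM2 drops from about 69.3 to 24.2 FPKM, and STAT5A and STAT5B move in opposite directions.

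With FPKM as deposited, BCR and ABL1 had the smallest log2 differences of the 10 genes, which did not hold under TMM, where SOCS3 (0.043) and SOCS2 (0.14) were nearer to 0. BCR encodes a protein with a coiled-coil domain, through which the fusion protein assembles, and in K562 its exon 14 is known to be joined to exon 2 of ABL1. The bases that meet at this join in the known e14a2 transcript are shown because a count over either gene adds fusion and normal transcripts. They are on the plus strand of GRCh38, at chr22:23290384-23290413 and chr9:130854064-130854093, 5′ to 3′, with the 10 bases next to the junction in capitals.
BCR exon 14, last 30 bases: actcagccactggatttaagCAGAGTTCAA
ABL1 exon 2, first 30 bases: AAGCCCTTCAgcggccagtagcatctgact
The fusion transcript would hold 3533 of the 7082 bases (49.9%) of the 23-exon BCR transcript in GENCODE release 29 and 5306 of the 5766 bases (92.0%) of the 11-exon ABL1 transcript, so neither gene's FPKM measures the fusion alone.

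BCR (gene 613, chromosome 22 from 23180509 to 23318037) was listed at 23.3, 24.8 and 24.5 FPKM in vehicle and at 20.8, 22.2 and 21.2 FPKM in HR-19011. All 3 treated libraries were below all 3 vehicle libraries. The log2 difference was -0.17 (SE 0.0386, adjusted p = 0.00292), a fall of 11.5% in mean FPKM. The call was lost under TPM (-0.051, adjusted p = 0.238). Against the median of all tested genes, the difference was -0.24 as deposited, -0.26 under TMM, -0.24 under TPM and -0.04 under quantile normalization. Of all 100-base windows of that BCR transcript, 6.90% occur unchanged in transcripts of other genes, chiefly the pseudogene BCRP2. With 50-base windows the share was 14.9%. Reads from those windows are uncertain.

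ABL1 (gene 25, chromosome 9 from 130713043 to 130887675), the kinase part of the fusion, was listed at 51.5, 54.1 and 54.7 FPKM in vehicle and at 50.6, 52.1 and 51.4 FPKM in HR-19011. The groups overlapped, since vehicle replicate 1 lay among the treated libraries. The log2 difference was -0.06 with a 95% interval from -0.13 to 0.02 (adjusted p = 0.129), which spans no change. Its sign followed the scaling: -0.31 under TMM (adjusted p = 1.51e-05), 0.067 under TPM (adjusted p = 0.0649) and 0.10 under quantile normalization (adjusted p = 0.0125). Relative to the median of all tested genes, ABL1 was at -0.13 as deposited, -0.16 under TMM and -0.12 under TPM. On that measure its sign turned only under quantile normalization (0.15). Without vehicle replicate 1 it was called lower, at -0.081 (adjusted p = 0.0315), in a fit that called 82.8% of all tested genes.

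A ratio of 2 genes within a library is not altered by a scaling that multiplies all its values by 1 factor, as TMM and TPM do, but quantile normalization can alter it. BCR stood at 0.453 ± 0.00575 (SD, n = 3) times ABL1 in vehicle and 0.417 ± 0.00834 in HR-19011, and the groups did not overlap. How often ratios of other gene pairs separate was not tested. The related kinase ABL2 was far below ABL1, at 4.21 ± 0.128 against 4.77 ± 0.0194 FPKM, and was called higher (log2 difference 0.15, adjusted p = 0.0115) as deposited, not called under TMM (-0.06) and lower under quantile normalization (-0.11). ABL1 was 12.7 ± 0.768 times ABL2 in vehicle and 10.8 ± 0.125 times in HR-19011, again without overlap. Under quantile normalization this direction turned, since ABL1 was at 0.10 and ABL2 at -0.11 on the log2 scale. ABR, the relative of BCR, was below the filter, at 0.0277 FPKM in vehicle, where it was listed at 0 in 1 library, and 0.820 FPKM in HR-19011.

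STAT5A and STAT5B lie side by side on chromosome 17 and encode the proteins that carry the signal. STAT5A (gene 6776, from 42287439 to 42311943) was listed at 122, 127 and 127 FPKM in vehicle and at 71.8, 74.4 and 67.2 FPKM in HR-19011. It was the highest of the 10 genes in vehicle, and every treated library was far below every vehicle library. It fell by 43.3% (log2 difference -0.81, SE 0.0392, adjusted p = 8.41e-08).

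STAT5B (gene 6777, from 42199177 to 42288370) was listed at 40.3, 40.6 and 41.3 FPKM in vehicle and at 62.2, 65.9 and 60.8 FPKM in HR-19011, higher in all 3 treated libraries. The rise was 1.55-fold (log2 difference 0.61, SE 0.0347, adjusted p = 2.39e-07). Both directions held under TMM, TPM and quantile normalization. The ratio of STAT5A to STAT5B went from 3.08 ± 0.0449 to 1.13 ± 0.0248 (SD, n = 3), so that the pair stood close to equal after treatment. Their summed level went from 166 ± 3.17 to 134 ± 6.16 FPKM. The genes are similar: 8.83% of the 100-base windows of STAT5A and 7.41% of those of STAT5B occur in the other, and their annotated spans overlap by 932 bases. With 50-base windows the shares were 11.9% and 10.0%. Reads in these stretches are uncertain.

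**Figure D2:**
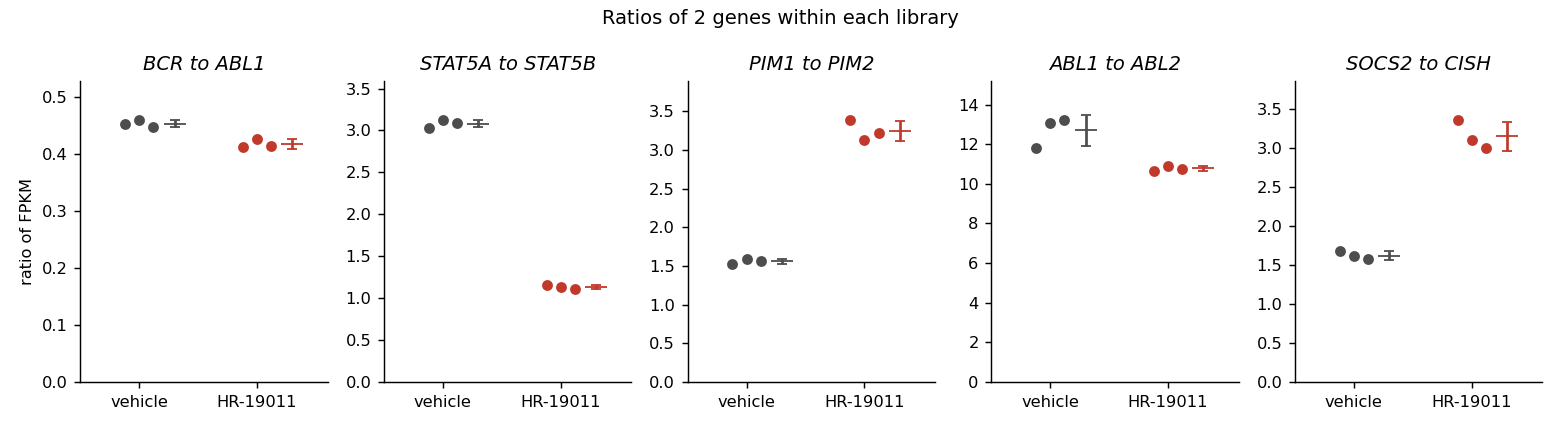
Ratio of FPKM of 2 genes within each library (vertical axes from 0), for 3 vehicle (grey) and 3 HR-19011 (red) libraries, with the mean and 1 SD. The groups are separate in all 5 panels, and STAT5A to STAT5B, from 3.08 to 1.13, has the largest log2 change of the 5 ratios. As single genes, 85.2% of tested genes are separate, and the share over other gene pairs was not computed.

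The PIM genes encode serine/threonine kinases that promote survival and translation without needing a regulatory subunit. PIM1 (gene 5292, chromosome 6 from 37170152 to 37175428) was listed at 104, 109 and 111 FPKM in vehicle and at 79.6, 77.7 and 78.3 FPKM in HR-19011. All treated libraries were lower, and the fall was 27.3% (log2 difference -0.45, SE 0.0312, adjusted p = 9.11e-07). PIM1 was nevertheless the highest of the 10 genes after treatment.

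PIM2 (gene 11040, chromosome X from 48913182 to 48919024) was listed at 68.1, 68.6 and 71.2 FPKM in vehicle and at 23.5, 24.8 and 24.3 FPKM in HR-19011. The treated values were close together and about a factor of 2.86 below vehicle (log2 difference -1.48, SE 0.0323, adjusted p = 7.41e-10). It had the largest fall of the 10 genes, and 1.86% of all tested genes had a lower log2 difference. Because PIM2 fell further than PIM1, the ratio of PIM1 to PIM2 went from 1.56 ± 0.0301 to 3.25 ± 0.127. The third family member, PIM3, which was not among the 10, went from 20.9 ± 1.04 to 23.3 ± 0.470 FPKM, a rise (log2 difference 0.15, adjusted p = 0.00873) that was not called under TMM (-0.10). Summed over the 3 kinases, the level went from 198 ± 6.01 to 126 ± 0.799 FPKM.

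The inhibitors of the pathway split. CISH, SOCS2 and SOCS3 share an SH2 domain and a SOCS box and dampen cytokine receptor signalling as negative feedback. CISH (gene 1154, chromosome 3 from 50606489 to 50611774) was listed at 16.8, 17.5 and 18.5 FPKM in vehicle and at 11.5, 12.4 and 11.96 FPKM in HR-19011. Every treated library was lower, a fall of 32.0% (log2 difference -0.52, SE 0.0452, adjusted p = 4.72e-06). MAPKAPK3, a kinase gene whose span overlaps that of CISH by 255 bases, fell as well, from 28.5 ± 0.698 to 17.8 ± 0.711 FPKM (adjusted p = 3.17e-07). The part of shared reads in either value was not tested.

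SOCS2 (gene 8835, chromosome 12 from 93569969 to 93626236) was listed at 28.2, 28.1 and 29.1 FPKM in vehicle and at 38.7, 38.4 and 35.8 FPKM in HR-19011, higher in all treated libraries. The rise was 1.32-fold (log2 difference 0.39, SE 0.0372, adjusted p = 8.95e-06), and 0.14 under TMM (adjusted p = 0.00537). The noncoding SOCS2-AS1, which overlaps it by 1430 bases, went from 2.32 ± 0.299 to 3.16 ± 0.291 FPKM (log2 difference 0.33, adjusted p = 0.00402), a call lost under TMM (0.14) and quantile normalization (0.00). SOCS2 stood at 1.62 ± 0.0541 times CISH in vehicle and 3.15 ± 0.186 times in HR-19011.

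SOCS3 (gene 9021, chromosome 17 from 78356778 to 78360925) was low, at 2.62, 2.62 and 2.60 FPKM in vehicle and 3.25, 3.20 and 3.29 FPKM in HR-19011. The groups did not overlap, and it was called higher as deposited (log2 difference 0.23, SE 0.0455, adjusted p = 0.0011). The call depended on the scaling: it was lost under TMM (0.043, adjusted p = 0.39), and the sign turned under quantile normalization (-0.10, adjusted p = 0.0619). Relative to the median of all tested genes, SOCS3 was at 0.16 as deposited, 0.19 under TMM, 0.19 under TPM and -0.04 under quantile normalization.

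BCL6 (gene 604, chromosome 3 from 187721377 to 187745468) encodes a zinc finger repressor of germinal centre B cells that has also been studied in leukaemic stem cells. It was listed at 0.446, 0.341 and 0.284 FPKM in vehicle and at 3.61, 3.61 and 3.14 FPKM in HR-19011. It was the lowest of the 10 genes in vehicle, and after treatment its library values overlapped those of SOCS3. Mean FPKM was 9.67-fold higher in HR-19011, and the log2 difference was 1.71 (SE 0.0716, adjusted p = 3.28e-08). A gene that passes the filter only through the treated group had to differ, so this call is read beside the fit with no filter, where the adjusted p was 1.14e-05 and 52% of all genes tested were called. Since it is low in vehicle, its log2 difference depends on the pseudocount, from 0.66 with 5 to 2.97 with 0.1.

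**Figure D3:**
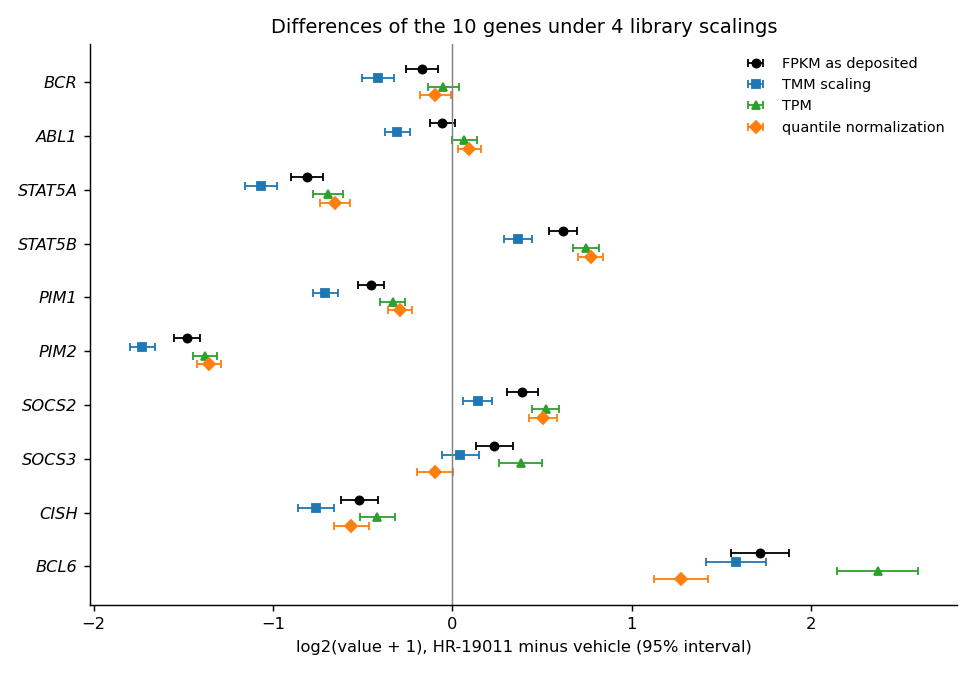
Log2 difference, HR-19011 minus vehicle, of the 10 genes (horizontal axis; points are estimates and whiskers 95% intervals from limma) with FPKM as deposited and under TMM, TPM and quantile normalization. STAT5A, PIM1, PIM2 and CISH stay below 0 and STAT5B, SOCS2 and BCL6 above 0 under all 4, whereas ABL1 and SOCS3 lie on both sides of 0.

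The promoters of CISH and BCL6 are shown because the 2 genes moved in opposite directions and both hold 4 copies of the STAT-type motif TTCNNNGAA. The motif is its own reverse complement, so a match covers both strands. The sequences are the 250 bases before the annotated start from RefSeq (GRCh38.p14), 5′ to 3′ on the minus strand, at chr3:50611775-50612024 for CISH and chr3:187745469-187745718 for BCL6, with bases of matches in capitals.
CISH promoter: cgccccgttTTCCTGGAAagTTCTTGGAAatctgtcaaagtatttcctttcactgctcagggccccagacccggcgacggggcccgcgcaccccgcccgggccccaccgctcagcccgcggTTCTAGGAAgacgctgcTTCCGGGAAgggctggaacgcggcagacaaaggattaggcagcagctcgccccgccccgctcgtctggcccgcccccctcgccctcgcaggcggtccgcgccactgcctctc
BCL6 promoter: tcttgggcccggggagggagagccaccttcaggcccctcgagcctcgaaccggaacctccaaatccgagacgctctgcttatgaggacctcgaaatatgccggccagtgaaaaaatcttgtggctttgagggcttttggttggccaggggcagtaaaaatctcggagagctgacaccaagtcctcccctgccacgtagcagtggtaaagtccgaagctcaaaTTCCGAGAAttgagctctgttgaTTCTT
In CISH the matches begin 241, 230, 129 and 112 bases before the start, in 2 close pairs. In BCL6 they begin 28 and 5 bases before the start, the second running across it, and at bases 11 (TTCTTAGAA) and 37 (TTCTAGGAA) after it.

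Promoter windows of 300 bases, 250 before and 50 after a start, were found for 9 of the 10 genes (13 windows, all but SOCS2). The motif occurred in 1 CISH window and in 1 of 2 BCL6 windows, and in none of the windows of BCR, ABL1, STAT5A, STAT5B, PIM1, PIM2 or SOCS3. For ABL1 and STAT5B the single window lies at a start inside the printed span (130835254 and 42276391). The outer ends of those spans (130713043 and 42288370) had no window. Among all 35116 windows in the table, 7.66% hold at least 1 match and 7 hold 4 or more. Among the 12878 windows of tested genes, 5.88% hold at least 1 match, and the windows of CISH and BCL6 are the 2 that hold 4 or more. BCL6 is in that set only through its level after treatment, and the 2 promoters are shown partly for their 4 copies. A match of these letters is a description of sequence, not of binding, and its absence refers to this window alone.

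**Figure D4:**
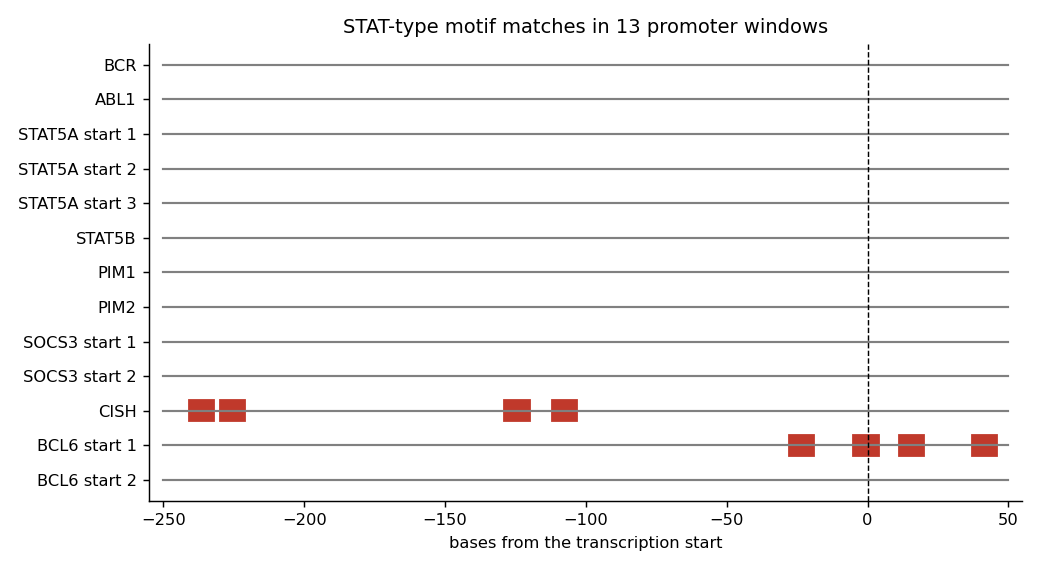
Matches of the STAT-type motif (red boxes) in 13 promoter windows of 9 genes, by bases from the transcription start (horizontal axis, start at 0, dashed). CISH and the first start of BCL6 hold 4 matches each, and the other 11 windows hold none.

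Other genes of the pathway were read from lists, and rose or fell means called by the same test. List counts as deposited stand beside 46.4% higher and 38% lower of all tested genes. Under TMM those shares were 34.1% and 51%, under TPM 52.9% and 32.1%, and under quantile normalization 38.6% and 45.3%. The lists are small, and several counts are near these shares, so the counts are given as description alone. Of 15 cytokine receptors and JAK kinases, 5 passed the filter, of which 2 were higher and 2 lower. With no filter, 6 were higher and 2 lower, against 33.5% and 18.5% of all 26374 genes tested. JAK1, a kinase that pairs with interferon and interleukin receptors, rose 3.08-fold, from 15.0 ± 0.649 to 46.0 ± 0.858 FPKM (SD, n = 3). TYK2, its relative, rose 1.30-fold. The erythropoietin receptor gene EPOR fell from 9.06 ± 0.653 to 5.92 ± 0.458 FPKM. JAK2, the kinase bound to that receptor, was called lower (log2 difference -0.15, adjusted p = 0.0386). That call was lost with no filter, under TPM, and when vehicle replicate 1 (-0.09) or any 1 of the 3 treated libraries (-0.16 to -0.14) was left out.

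Of 4 other STAT genes read here, 3 were tested and these 3 were higher as deposited, with a median log2 difference of 1.45 against 0.07 over all tested genes. STAT2, a factor of interferon signalling, rose 3.68-fold from 6.57 to 24.2 FPKM, and STAT6, which carries interleukin signals, 2.94-fold from 8.17 to 24.0 FPKM. STAT3 was called higher as deposited (log2 difference 0.08, adjusted p = 0.0223) and lower under TMM (-0.17), and the call was lost without vehicle replicate 3, HR-19011 replicate 1 or HR-19011 replicate 2.

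Of 21 adaptors and effectors of the fusion kinase, 18 were tested, 10 higher and 4 lower, with a median of 0.40, and under TMM 10 were higher and 8 lower. GAB2, a docking protein through which the fusion reaches PI3 kinase and RAS, rose 4.81-fold, from 7.89 ± 0.400 to 38.0 ± 1.13 FPKM. PIK3CB, a catalytic PI3 kinase subunit, rose 2.29-fold. CRKL, an adaptor that is a prominent substrate of the fusion kinase, fell 1.63-fold, from 114 ± 1.95 to 69.6 ± 0.747 FPKM. GRB2, the adaptor that binds the fusion protein, was not called as deposited, at 54.9 ± 1.248 and 53.0 ± 1.17 FPKM. Under TMM all 18 tested genes of this list were called, GRB2 among them. GRB2 was singled out after its values were seen.

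Among 15 negative regulators of JAK and STAT signalling, 14 were tested, 6 higher and 2 lower, with a median of 0.08; under TMM and under quantile normalization 6 were higher and 7 lower. Of the 6 higher, SOCS1 (0.585 to 1.73 FPKM) and PTPN6 (0.574 to 1.67 FPKM) passed the filter only through the treated group, so their direction was set by it. SH2B3, the adaptor LNK that restrains JAK2, rose 2.12-fold to 41.2 FPKM, and the phosphatase gene PTPRC, encoding CD45, 2.01-fold to 20.7 FPKM. The phosphatase gene PTPN1 fell 1.42-fold, from 36.9 ± 0.390 to 26.0 ± 0.562 FPKM.

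Of 15 other genes that STAT5 is known to induce, 12 were tested, 8 higher and 4 lower, with a median of 0.18, and under TMM 4 were higher and 4 lower. SOCS1, which is in this list too, is again 1 of the higher genes. CDKN1A, the cell cycle inhibitor p21, which many other pathways also induce, rose 12.7-fold from 2.12 ± 0.0467 to 26.9 ± 1.46 FPKM. The survival gene MCL1 rose 2.44-fold to 185 ± 6.02 FPKM. IREB2, an iron sensor gene, fell 1.30-fold. All 6 corepressor partners of BCL6 were tested, 1 higher and 2 lower, with a median of 0.01; under TMM 0 were higher and 5 lower, and under TPM 4 were higher and 1 lower. HDAC3 fell 1.40-fold and CTBP1 1.13-fold, and NCOR1 rose 1.249-fold, with CTBP1 not called under TPM or quantile normalization and NCOR1 not called under TMM.

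**Figure D5:**
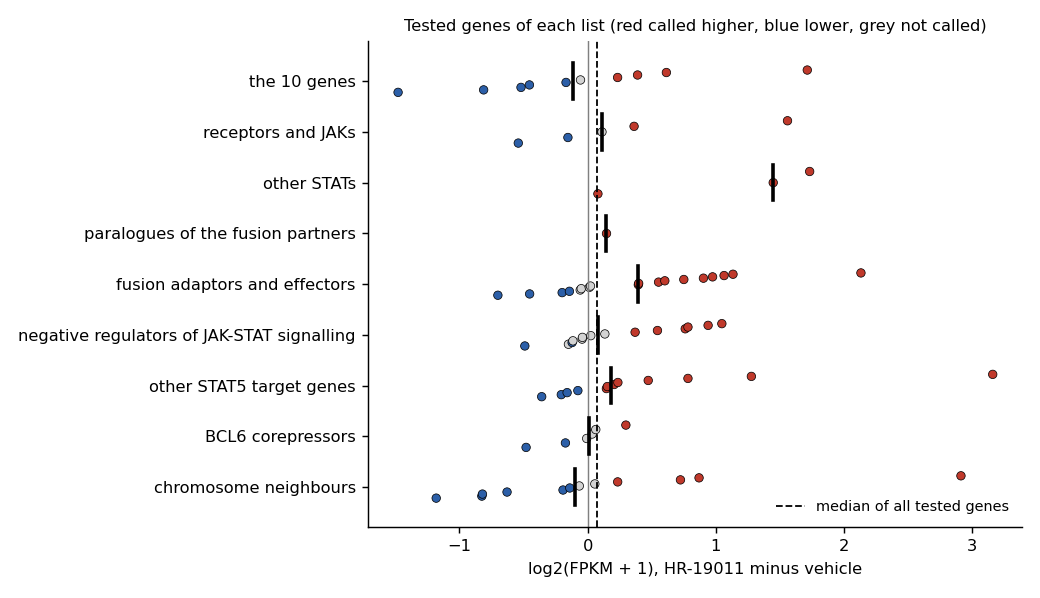
Log2 difference, HR-19011 minus vehicle (horizontal axis), of each tested gene in the 10-gene set and 8 other lists, coloured by limma call, with a black bar at each list's median and a dashed line at the median of all tested genes (0.07). Each list except the other STATs and the single tested paralogue holds calls in both directions.

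Genes beside the translocation partners were read for comparison, since K562 is known to carry extra copies of the fusion region. The list takes both sides of BCR and ABL1, whereas the fusion joins the lower-coordinate side of BCR to the higher-coordinate side of ABL1. ASS1 and EXOSC2, named below, lie at lower coordinates than ABL1, and ZNF70 and CHCHD10 at higher coordinates than BCR. FAM78A lies at higher coordinates than ABL1. Which of these genes are in the extra copies was not tested. Of 102 genes within 500 kb of BCR or ABL1 that are in the files, 12 were tested. Of these, 4 were higher and 6 lower, against 46.4% and 38% of all tested genes. Of the others, 63, 39 of them immunoglobulin segments, were listed at 0 in all libraries. ZNF70, 1 of the 4 higher (0.937 to 2.54 FPKM), passed the filter only through the treated group, and the pseudogene FBXW4P1, 1 of the 6 lower (1.87 to 0.858 FPKM), only through vehicle. The span of FBXW4P1 overlaps that of BCR by 2239 bases, and the part of shared reads in either value was not tested. ASS1, an arginine synthesis gene 212 kb from ABL1, rose 13.8-fold from 1.04 ± 0.194 to 14.4 ± 0.636 FPKM. FAM78A and CHCHD10, the latter encoding a mitochondrial protein, fell 1.79-fold each. EXOSC2, an RNA exosome gene 8.15 kb from ABL1 that was singled out after its values were seen, fell from 30.6 ± 1.87 to 12.9 ± 0.937 FPKM. Besides FAM78A, the tested genes at higher coordinates than ABL1 were NUP214 and PRRC2B. As deposited, NUP214 was called lower (log2 difference -0.19) and PRRC2B higher (0.23). NUP214 was not called under quantile normalization (-0.02). ABL1 itself was not called as deposited, but was called lower under TMM (-0.31) and higher under quantile normalization (0.10). The tested genes whose pattern over the 6 libraries lay nearest to that of BCR, by Euclidean distance of centred log2 values, were MCM5 (0.0278), ZMYND8 (0.0314) and NSUN5P2 (0.0356). Those nearest to ABL1 were AAAS (0.0323), SUFU (0.0335) and PSMF1 (0.0361).

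The order of levels among the 10 genes also differed. In vehicle it ran STAT5A, PIM1, PIM2, ABL1, STAT5B, SOCS2, BCR, CISH, SOCS3 and BCL6, with no overlap between neighbours over the 3 libraries. In HR-19011 it ran PIM1, STAT5A, STAT5B, ABL1, SOCS2, PIM2, BCR, CISH, BCL6 and SOCS3, and only BCL6 and SOCS3 overlapped. Each of the 5 ratios computed had an exact two-sided permutation p = 0.1, and 0.1 after adjustment over the 5, which is the smallest p that 3 against 3 libraries allow.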

How the data were processed

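Polyadenylated RNA of 6 K562 libraries was sequenced from stranded libraries, per the labels' protocols. Each deposited table gives FPKM for every gene, per the file headers; this unit divides fragment counts by transcript length and library size. GRCh38, StringTie 2.1.3b, HISAT2 2.1.0, SAMtools 1.9, Trimmomatic 0.38, DESeq2 1.24.0, Bowtie2 and HISAT are named, without roles, in the submitters' processing notes. The use of strand in counting and the division of multiply matching reads are not given in the sources used here.

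Groups came from sample titles. In genes spanning up to 1500 bases, whole multiples of 1 read were not recovered from low values. Of these values 27.7% to 31.8% lay within 0.1 of a multiple at the best of many steps, where chance gives 20% for 1 step. The gene lengths used may differ from those behind the FPKM, so this check cannot tell whether such multiples exist. With no read counts at hand, no count model was used. Testing used limma 3.58.1 (R 4.3.3) on log2(FPKM + 1) of genes averaging 1 FPKM or more (group as the only term, mean-variance trend, two-sided, Benjamini-Hochberg adjustment over all tested genes, threshold 0.05). Adjusted p-values of genes are from this model or, where an alternative is named, from limma under that alternative; ratios were tested by exact permutation. Log2 differences on this scale understate the change of low genes, and folds are ratios of mean FPKM. The model was tested on simulated data. Within groups, Pearson correlation of log2 values was 0.999, and at most 0.0244% of values above 0 were identical.

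The 10 genes, the lists and the tests were chosen with earlier results of these data known. Besides the 10 genes, ABL2 and ABR, the named genes are the 3 called genes of each list with the smallest p, with both directions where both were called, and for BCR and ABL1 the 3 genes of nearest pattern. JAK2, PIM3, GRB2, EXOSC2, NUP214, PRRC2B, MAPKAPK3, SOCS2-AS1, SOCS1, PTPN6, ZNF70 and FBXW4P1 fall outside this rule and were chosen after their values were seen. Alternatives were TMM (written for this purpose), TPM and quantile normalization, a filter at 5 FPKM or none, pseudocounts of 5 and 0.1, a threshold of 0.01, a fit without the variance trend, a replicate block, and leaving out each library. Positions are from RefSeq (GRCh38.p14), exons and transcripts from GENCODE release 29 (GRCh38). Some listed genes are not reported here, and the list counts and summed levels leave them out.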

Additional observations from a re-analysis of the deposited data

How the results depend on the processing

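STAT5A, PIM1, PIM2 and CISH were called lower and STAT5B and SOCS2 higher in all 17 settings, and BCL6 higher in the 16 that tested it. Most tested genes were called in each setting: 52% with no filter and 77.5% to 87.2% in the others. The share of all tested genes called in every setting was not computed. The setting at 0.01 reads the main fit at a stricter threshold. BCR lost its call under TPM (-0.051). ABL1 was called lower under TMM (-0.31) and turned to 0.067 under TPM and 0.10 under quantile normalization; leaving out 1 library gave -0.081 to -0.039. SOCS3 was 0.043 under TMM and -0.10 under quantile normalization. With the filter at 5 FPKM, BCL6 and SOCS3 left the test and 2 of the 10 genes were higher. Of all tested genes, 8828 were higher with no filter and 3347 with the filter at 5 FPKM; higher genes were 64.4% and 47.5% of calls.

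Small lists moved as follows. Of all tested genes, 34.1% were higher and 51% lower under TMM, and 52.9% and 32.1% under TPM. Under quantile normalization the shares were 38.6% and 45.3%. Under TMM, the lower counts were 8 adaptors, 7 negative regulators, 5 BCL6 corepressors and 1 other STAT, and the higher counts were 4 STAT5 targets, 0 corepressors and 0 paralogues. Under TPM, lower counts were 2 adaptors and 1 each of receptors and JAKs, negative regulators, STAT5 targets and corepressors, and 4 corepressors were higher. Under quantile normalization, 7 negative regulators, 2 STAT5 targets, 1 corepressor and 1 paralogue were lower, and 2 corepressors and 0 paralogues higher. With no filter, 6 receptors and JAKs, 2 paralogues and 10 chromosome neighbours were higher, where 33.5% of all 26374 genes tested were higher. With the filter at 5 FPKM, 3 negative regulators, 2 neighbours and 0 paralogues were higher and 1 receptor or JAK lower, against 41.4% higher and 45.8% lower of all tested genes. That filter took ABL2, JAK2, SOCS1, PTPN6 and ZNF70 out of the test, so these counts refer to fewer genes and not to lost calls of those genes. At a threshold of 0.01, 2 adaptors, 1 negative regulator and 1 receptor or JAK were lower and 0 paralogues higher, against 34.8% and 42.8%. Leaving out 1 library gave 1 to 2 lower receptors and JAKs.

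With the replicate number as a block, 4 of the 10 genes were higher and 5 lower, and 1 receptor or JAK was lower, against 45.8% and 37.5% of all tested genes. JAK2 (adjusted p = 0.0564) and STAT3 (0.0525) lost their limma calls there, which left 2 other STATs higher. Same-numbered libraries share only a number: their deviations from group means correlated at -0.034, -0.0045 and -0.108. No library correlated best with its own number. The depth behind all values is unknown.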
